A study of Mus musculus with 6 samples.

Results

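The genes described here are the 10 mouse genes that encode inhibitors of cyclin-dependent kinases and the D-type cyclins: the INK4 inhibitors Cdkn2a, Cdkn2b, Cdkn2c and Cdkn2d, the CIP/KIP inhibitors Cdkn1a, Cdkn1b and Cdkn1c, and the cyclins Ccnd1, Ccnd2 and Ccnd3. They were found by symbol among the 22180 genes tested, and all 10 were measured, each by 1 probe set. The samples were 6 biotin-labelled arrays of total RNA from untreated cells derived from NeuNDL-transformed mouse mammary tumours, 3 of cells labelled SLK knockout and 3 of cells labelled SLK wild-type. Both groups carry NeuNDL, a mutant of the receptor Neu (ErbB2) that signals without ligand, and were grown in serum with a mammary epithelial growth supplement. The series design names passages 9, 19 and 29, but no label says which array came from which passage, and the labels do not give the sex or age of the mice, whether a line was 1 clone, or how Slk was deleted. The p-values thus rest on the spread among these samples only, which may be technical. In such bulk samples, fewer cells of a type and less RNA per cell cannot be told apart.

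D-type cyclins bind CDK4 and CDK6, and the active kinases phosphorylate the retinoblastoma protein, which releases E2F transcription factors and lets a cell enter S phase. INK4 proteins bind CDK4 and CDK6 and keep the cyclin off, whereas CIP/KIP proteins bind whole cyclin-CDK complexes and inhibit above all CDK2. Cyclin D1 is a known target of ErbB2 signalling in mammary cells, and mice that lack it are resistant to mammary tumours driven by Neu. INK4 genes, Cdkn2a and Cdkn2b above all, are known to be switched on under prolonged culture and oncogenic stress.

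All values are the deposited log2 signals, and every change is a log2 fold change, knockout minus wild-type, with its moderated standard error (SE) from limma. A gene was called at a Benjamini-Hochberg adjusted p under 0.05 over all 22180 genes. Slk, the targeted gene, had 7.14, 7.21 and 7.20 on the knockout arrays and 8.21, 8.30 and 8.34 on the wild-type arrays (log2 fold change -1.10, SE 0.06, adjusted p = 0.0021), so it was lower on every knockout array. Array medians over all probe sets lay between 3.93 and 3.97, and pairs of arrays correlated with Pearson's r of 0.990 to 0.994. Among epithelial markers Krt8, chosen after its values were seen, was bright, with a mean of 10.47 in knockout and 10.32 in wild-type cells, while Krt19 was dim, at 3.59 in knockout and 3.51 in wild-type cells. Of the 9 measured epithelial markers 2 were called lower, Krt14 (log2 fold change -0.66) and Cdh1 (-0.43), against 0.113% of all genes. None was called higher, yet 5 of the 9 had the higher mean in knockout cells (51.5% of all genes). The median change was 0.0019. In 4 of the 9 every knockout array lay above every wild-type array, against 8.79% of all genes. In 3 every one lay below, against 8.1%. The summed log2 signal of the 9 was 70.2 to 70.5 on knockout and 71.3 to 71.5 on wild-type arrays. Of 8 fibroblast markers 1, Pdgfrb (log2 fold change -0.67), was called lower, against 0.113% of all genes, and none higher. The list went both ways (median change -0.17). In 3 of the 8 every knockout array lay above every wild-type array, against 8.79% of all genes, and in 4 every one lay below, against 8.1%. The summed log2 signal of the 8 was 47.4 to 47.7 on knockout and 48.0 to 48.4 on wild-type arrays. None of 7 leukocyte and 6 endothelial markers passed, and their median signals in knockout cells, 3.34 and 3.91, lay below that of the median gene, 4.41. None of 47 small nucleolar RNA genes named Snord passed, yet their median change was -0.19, against 0.0038 over all genes, and their summed log2 signal was 347 to 355 on knockout and 356 to 363 on wild-type arrays. The part that these shifts have in the values below was not tested.

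None of the 10 genes was called in either direction, while 0.437% of all genes were. An unadjusted p under 0.05 was reached by Cdkn2b, Cdkn2a and Ccnd2, all with the higher mean in knockout cells, which is 3 of 10 genes against 5.75% of all genes (10.2% in either direction). In those 3 genes every knockout array lay above every wild-type array, which was the case for 8.79% of all genes. In 1 of 10, Cdkn1b, every knockout array lay below every wild-type array, against 8.1% of all genes. In the remaining 6 the groups overlapped. The median change of the 10 genes was 0.0067, close to the 0.0038 of all genes, and 5 of the 10 had the higher mean in knockout cells, against 51.5% of all genes.

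**Figure D1:**
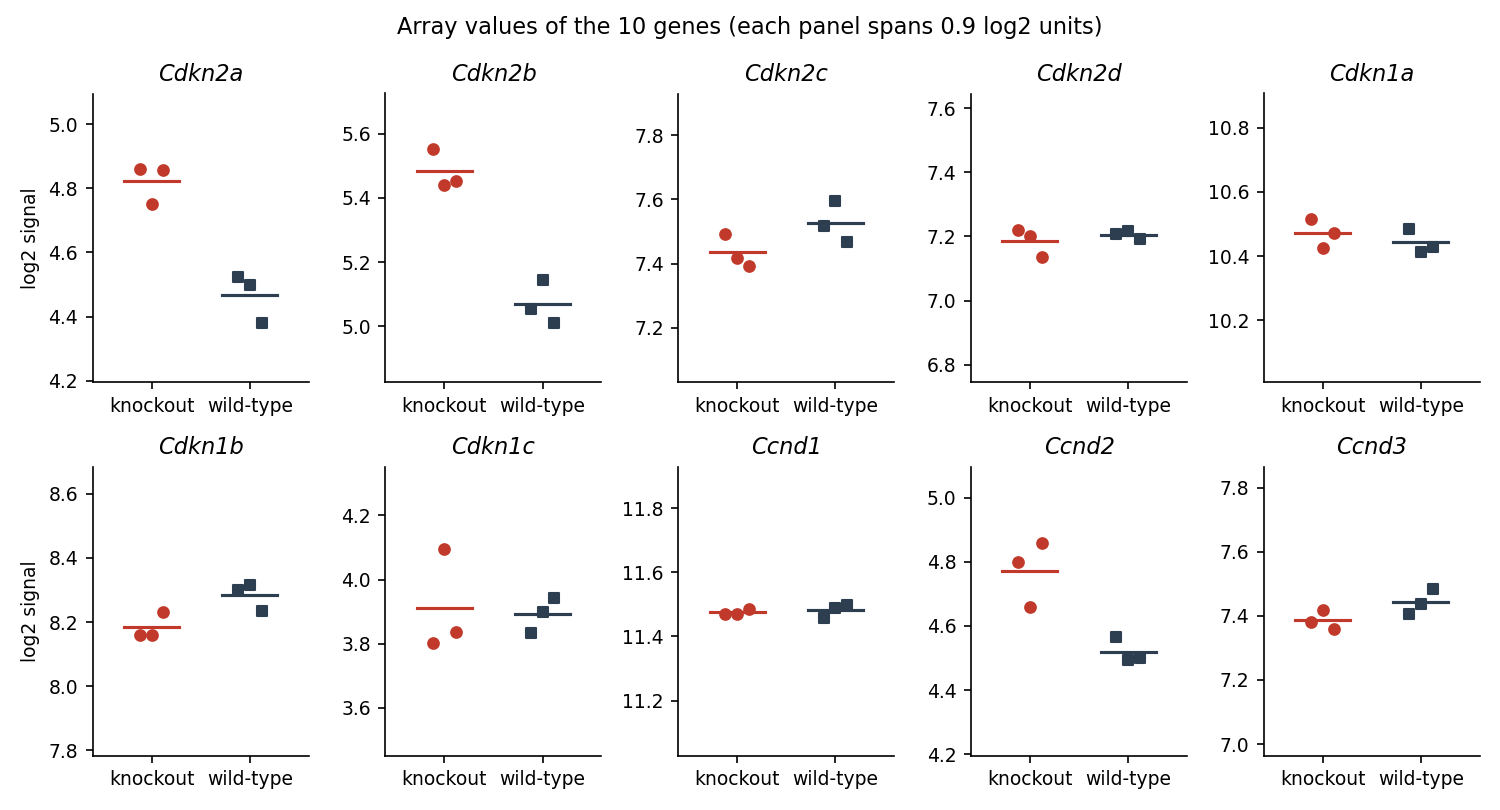
Log2 signal of each of the 10 genes (y axis) on the 3 knockout arrays (circles, left) and the 3 wild-type arrays (squares, right), with the group mean as a line. Every panel spans 0.9 log2 units around the gene's own mean, and the groups stand clear of each other in Cdkn2a, Cdkn2b and Ccnd2, while in Cdkn1b they are separated by 0.0034.

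Among the INK4 inhibitors, the neighbouring genes Cdkn2a and Cdkn2b had higher signals in knockout cells, and Cdkn2c and Cdkn2d did not differ beyond their spread. Cdkn2b encodes p15INK4b, an inhibitor of CDK4 and CDK6 known as a target of TGF-beta signalling. Its probe set (17427155) had log2 signals of 5.55, 5.44 and 5.45 on the knockout arrays, against 5.05, 5.14 and 5.01 on the wild-type arrays. The lowest knockout value exceeded the highest wild-type value by 0.30, more than the spread within either group. The means were 5.48 ± 0.06 in knockout and 5.07 ± 0.07 in wild-type cells (SD, n = 3 each), a log2 fold change of 0.41 (SE 0.06, 95% interval 0.27 to 0.56) or 1.33-fold, with limma adjusted p = 0.058. The unadjusted p of 0.00032 was the 123rd smallest of the 22180 genes.

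Cdkn2a gives rise to 2 tumour suppressor proteins from separate first exons and different reading frames, p16INK4a, which inhibits CDK4 and CDK6, and p19ARF, which binds MDM2 and stabilises p53. It was read by 1 probe set (17427147), and the sources used here do not say which exons its probes cover, so the value belongs to the gene and not to either transcript. The log2 signals were 4.86, 4.75 and 4.86 on the knockout arrays, against 4.52, 4.50 and 4.38 on the wild-type arrays. As for Cdkn2b, all knockout values lay above all wild-type values, here with a gap of 0.23. The means were 4.82 ± 0.06 in knockout and 4.47 ± 0.08 in wild-type cells (SD, n = 3 each), which gave a log2 fold change of 0.36 (SE 0.06, 95% interval 0.21 to 0.51), or 1.28-fold, with limma adjusted p = 0.097. These signals lie near that of the median gene, 4.41 in knockout and 4.38 in wild-type cells. Whether they exceed the background of the array was not tested. Signals as low as these are compressed on arrays, so the fold may be understated.

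Whether Cdkn2a and Cdkn2b pass the threshold depended on how many dim genes were tested and on the model of the spread. Without the dimmest 30% of genes both were called (limma adjusted p = 0.025 for Cdkn2b and 0.044 for Cdkn2a), and without the dimmest 50% likewise (0.0077 and 0.016). With an intensity trend in the variance, Cdkn2b was called (adjusted p = 0.014) and Cdkn2a had 0.063. More genes of the whole array were called in these settings too. Without the dimmest 30%, 143 of the 15526 genes tested were called higher and 63 lower. Without the dimmest 50% the counts were 202 and 139 of 11090. With the trend they were 265 and 176 of 22180, against 72 and 25 in the main analysis. Over all 16 alternatives the adjusted p lay between 0.0077 and 0.24 for Cdkn2b and between 0.016 and 0.30 for Cdkn2a. The changes themselves moved little, from 0.38 to 0.45 for Cdkn2b and from 0.31 to 0.39 for Cdkn2a.

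**Figure D2:**
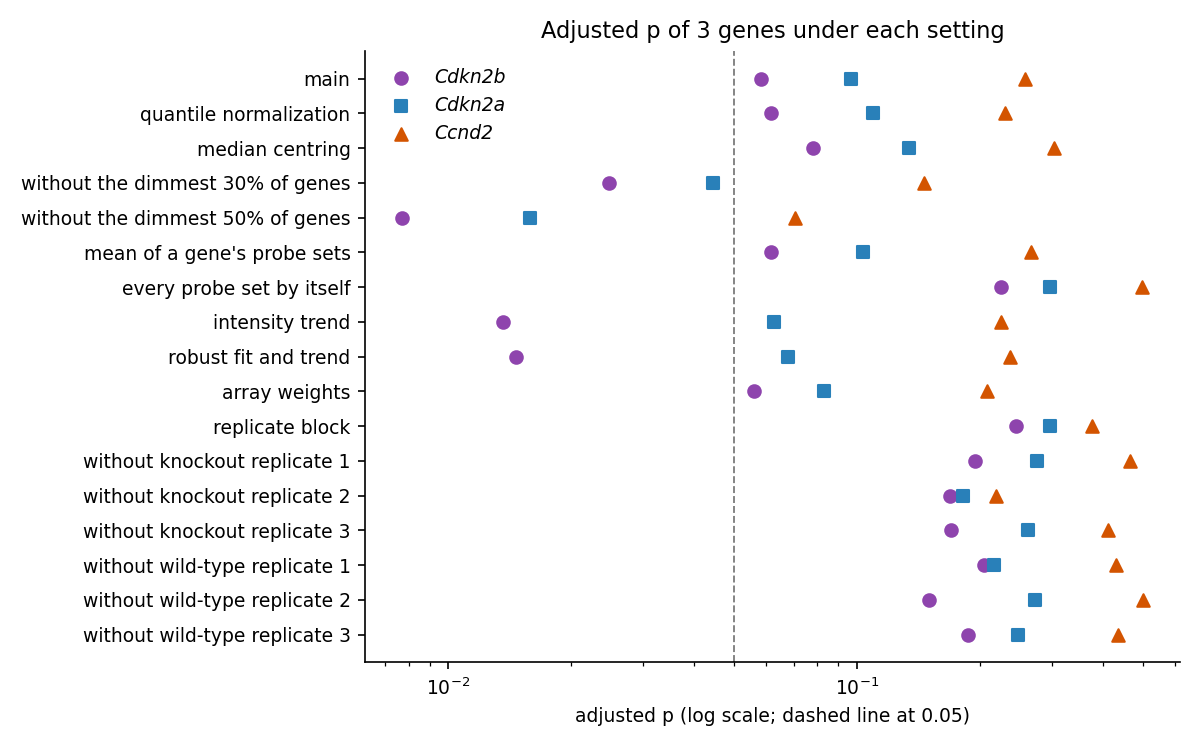
Adjusted p (x axis, log scale) of Cdkn2b (circles), Cdkn2a (squares) and Ccnd2 (triangles) under the main setting and each of the 16 alternatives (rows). Points left of the dashed line at 0.05 are calls: 4 for Cdkn2b, 2 for Cdkn2a and none for Ccnd2.

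Over the 6 arrays the signals of Cdkn2a and Cdkn2b correlated with Pearson's r = 0.97, the highest of the 45 pairs among the 10 genes. The 6 points fall into 2 groups that differ in both genes, so r is given as a description. Among the 11089 other genes above the median signal, Cdkn2b stood in the 50th place by likeness to Cdkn2a, and the 3 most alike were Dcn (decorin, a matrix proteoglycan) with r = 0.995, Orm2 (an acute-phase plasma protein) with 0.995 and Tgfbi (a matrix protein induced by TGF-beta) with 0.994. For Cdkn2b they were Eya2 (a transcriptional coactivator), Sox10 (known from the neural crest) and Gm16136, with r of 0.996, 0.995 and 0.995, and Cdkn2a stood in the 66th place. As many as 287 genes had an r of at least 0.9 with Cdkn2a and 353 with Cdkn2b, so a high r over 6 arrays does not set the named genes apart. Dcn, also on the fibroblast list above, differed by 0.43 on the log2 scale (limma adjusted p = 0.10) and Orm2 by 0.60 (0.094). Tgfbi (0.55, adjusted p = 0.038), Eya2 (0.64, 0.029) and Sox10 (1.47, 0.0093) were called higher, against 0.325% of all genes. All were picked by likeness over the same 6 arrays, which favours genes higher in knockout cells, so these calls are no independent result. The calls of Tgfbi and Eya2 were lost whichever single array was left out. That of Sox10 was lost without knockout array 3 (adjusted p = 0.062) or wild-type array 1 (0.052). With the replicate block none of these 3 was called (adjusted p = 0.18 for Tgfbi, 0.15 for Eya2 and 0.085 for Sox10), with every probe set tested by itself Tgfbi and Eya2 were not, and with median centring Tgfbi was not (0.056).

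Because these 2 genes lie side by side and both had the higher mean in knockout cells, the start regions that RefSeq gives them on GRCm38.p6 are shown, each from 250 bases before to 50 bases after an annotated start. Capitals mark GGGCGG (the GC box), the E2F motifs TTTCCCGC, TTTCGCGC, TTTGCCGC and TTTGGCGC, the E-box CACGTG and the cyclic AMP response element (CRE) TGACGTCA, searched on both strands and chosen after the sequences had been seen. The first Cdkn2a start is the one further upstream (chr4:89294570-89294869), the second lies downstream of it (chr4:89282143-89282442), and Cdkn2b lies upstream of both (chr4:89310983-89311282), all on the minus strand.
Cdkn2b: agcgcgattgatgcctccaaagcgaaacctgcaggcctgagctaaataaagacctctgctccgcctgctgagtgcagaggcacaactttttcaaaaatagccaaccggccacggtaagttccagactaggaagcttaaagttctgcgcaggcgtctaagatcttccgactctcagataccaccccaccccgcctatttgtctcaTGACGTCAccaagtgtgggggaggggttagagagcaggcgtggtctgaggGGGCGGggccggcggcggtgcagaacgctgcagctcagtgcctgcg
Cdkn2a, upstream start: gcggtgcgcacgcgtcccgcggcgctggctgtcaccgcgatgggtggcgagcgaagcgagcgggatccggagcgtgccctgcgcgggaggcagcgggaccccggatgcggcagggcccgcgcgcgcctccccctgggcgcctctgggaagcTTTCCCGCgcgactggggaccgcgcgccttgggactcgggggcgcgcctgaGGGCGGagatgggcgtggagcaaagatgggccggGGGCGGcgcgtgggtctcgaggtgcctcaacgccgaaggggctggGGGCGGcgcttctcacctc
Cdkn2a, downstream start: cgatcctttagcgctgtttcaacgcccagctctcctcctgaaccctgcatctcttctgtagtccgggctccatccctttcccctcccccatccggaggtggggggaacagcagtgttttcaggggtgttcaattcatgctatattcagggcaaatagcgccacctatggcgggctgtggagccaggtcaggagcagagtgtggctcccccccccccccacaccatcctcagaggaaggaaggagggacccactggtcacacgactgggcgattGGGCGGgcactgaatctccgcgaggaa
The upstream Cdkn2a window held 45 CpG pairs, more than 98.1% of all 32851 windows of 300 bases in the RefSeq table, with 3 GC boxes and 1 E2F motif. The downstream window held 12 CpG pairs and 1 GC box, and the Cdkn2b window held 18 CpG pairs, 1 GC box and 1 CRE. Of all windows, 35.7% held a GC box, 2.26% one of the E2F motifs, 7.15% the E-box and 1.79% the CRE. Windows were found for 7 of the 10 genes (11 windows), of which 9 held a GC box in at least 1 copy, and every one of the 7 genes had such a window. Cdkn2a, Cdkn2c, Cdkn1a and Ccnd3 had 2 windows each, and so more than 1 chance of a match. The median of all windows was 7 CpG pairs and 52.7% G and C, against 2 to 45 and 44% to 77% in the 11 windows. The part of base composition in the matches was not tested. The E2F motif and the CRE were found in no member window other than those named, and the E-box in 1, the downstream window of Cdkn2c. A match is a match of letters and shows neither binding nor use of that start in these cells.

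The genes around this locus were compared next. Mtap, a methionine salvage enzyme next to Cdkn2a, had 9.03, 8.97 and 9.03 in knockout and 9.03, 9.01 and 9.01 in wild-type cells (log2 fold change -0.0085, SE 0.05, limma adjusted p = 0.97), and the groups overlapped. Dmrta1, a DM domain factor gene on the other side, was dim and had a log2 fold change of 0.16 (SE 0.19), and Elavl2, a neuronal RNA-binding protein gene beyond it, had 0.09 (SE 0.05). Ifne, an interferon gene, had 0.04 (SE 0.09). Of the 11 nearest tested protein-coding genes on either side other than Cdkn2b, none was called and none had an unadjusted p under 0.05, with changes between -0.16 and 0.19. In 1 of the 11, Elavl2, the groups did not overlap, against 16.9% of all genes.

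**Figure D3:**
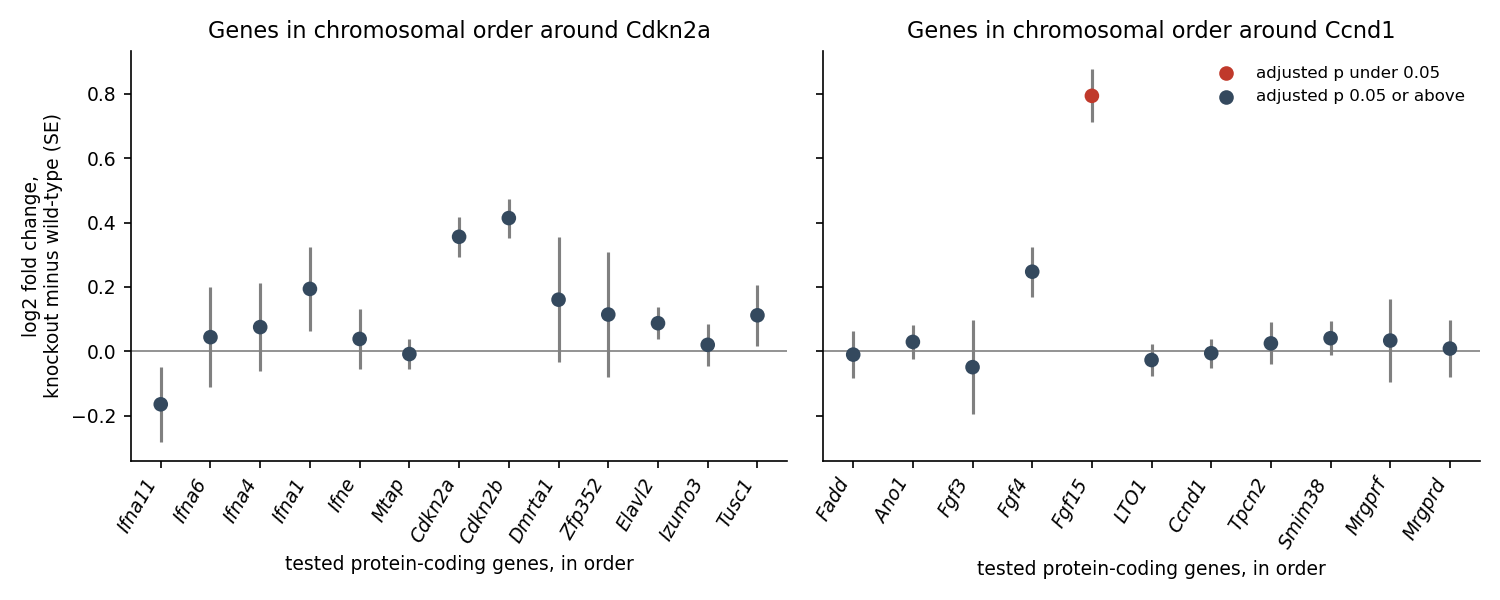
Log2 fold change, knockout minus wild-type, with its standard error (y axis), of the tested protein-coding genes on either side of Cdkn2a (left) and of Ccnd1 (right), in chromosomal order and not to scale. Cdkn2a and Cdkn2b stand at 0.36 and 0.41 between genes from -0.16 to 0.19, and Fgf15 stands at 0.79 while Ccnd1, with 1 gene between them, is at -0.0059.

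Cdkn2c and Cdkn2d encode the other INK4 proteins, p18INK4c and p19INK4d. Cdkn2c had 7.49, 7.42 and 7.39 on the knockout arrays and 7.52, 7.59 and 7.47 on the wild-type arrays, with knockout array 1 inside the wild-type range. Its log2 fold change was -0.09 (SE 0.06, 95% interval -0.23 to 0.05, limma adjusted p = 0.66). Cdkn2d had 7.22, 7.20 and 7.14 on the knockout arrays and 7.21, 7.22 and 7.19 on the wild-type arrays, and its log2 fold change was -0.02 (95% interval -0.14 to 0.10, adjusted p = 0.93). The upper bounds for both lie below the lower bounds for Cdkn2a and Cdkn2b, 0.21 and 0.27. The differences between these changes were not tested.

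**Figure D4:**
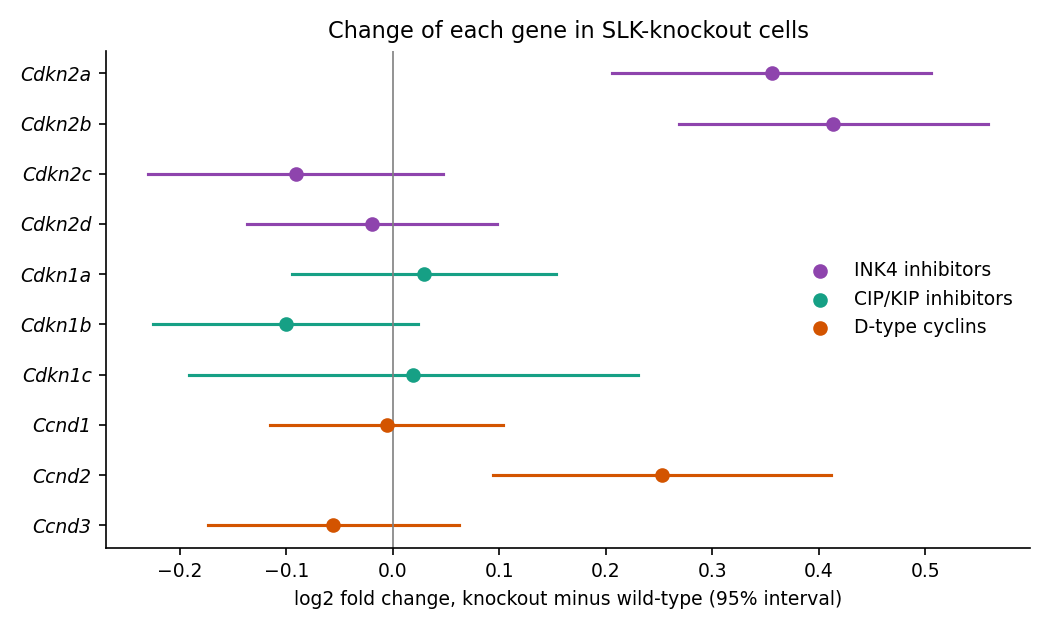
Log2 fold change, knockout minus wild-type (x axis), of each of the 10 genes with its 95% interval from limma, not adjusted for the number of genes. The intervals of Cdkn2a (0.21 to 0.51), Cdkn2b (0.27 to 0.56) and Ccnd2 (0.09 to 0.41) lie above 0 and those of the other 7 genes include it.

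The CIP/KIP inhibitors showed no difference past the threshold, and none had an unadjusted p under 0.05. Cdkn1a encodes p21, the inhibitor through which p53 is known to arrest the cell cycle. It was bright in both groups, with 10.52, 10.42 and 10.47 on the knockout arrays and 10.49, 10.41 and 10.43 on the wild-type arrays. The 2 ranges overlapped, and the 95% interval of the log2 fold change of 0.03 ran from -0.10 to 0.15, or 0.936-fold to 1.11-fold (limma adjusted p = 0.90). Cdkn1b encodes p27, which is controlled largely through the stability of the protein. It had 8.16, 8.16 and 8.23 on the knockout arrays and 8.30, 8.32 and 8.23 on the wild-type arrays. The groups were separated by 0.0034, far less than the spread within them, and the log2 fold change was -0.10 (SE 0.05, 95% interval -0.23 to 0.02, adjusted p = 0.58). Cdkn1c, an imprinted gene that encodes p57, was the only one of the 10 below the median gene in mean signal. It had 3.80, 4.09 and 3.84 on the knockout arrays and 3.83, 3.90 and 3.94 on the wild-type arrays, and its change of 0.02 (SE 0.09, adjusted p = 0.96) took the opposite sign, -0.07, without knockout array 2.

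Among the D-type cyclins, Ccnd1 had nearly the same signal in both groups and Ccnd2 had a higher one in knockout cells that was not called. Ccnd1 had 11.47, 11.47 and 11.49 on the knockout arrays and 11.46, 11.49 and 11.50 on the wild-type arrays. Its means were 11.48 ± 0.01 in knockout and 11.48 ± 0.02 in wild-type cells (SD, n = 3 each), and the 95% interval of the log2 fold change was -0.12 to 0.10, or 0.923-fold to 1.07-fold (limma adjusted p = 0.98). Its mean signal in knockout cells exceeded that of 99.9% of genes, and a signal near the top of the scale can compress a difference.

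Ccnd2, the second activating partner of CDK4 and CDK6, had 4.80, 4.66 and 4.86 on the knockout arrays and 4.56, 4.49 and 4.50 on the wild-type arrays. All knockout values lay above all wild-type values, with a gap of 0.09 between the groups. These signals too lie near that of the median gene, 4.41 in knockout and 4.38 in wild-type cells, and were not tested against background. The means were 4.77 ± 0.10 in knockout and 4.52 ± 0.04 in wild-type cells (SD, n = 3 each), a log2 fold change of 0.25 (SE 0.07, 95% interval 0.09 to 0.41) or 1.19-fold, with limma adjusted p = 0.26. It was called under none of the 16 alternatives, in which the adjusted p lay between 0.070 and 0.50. Ccnd3, the third D-type cyclin, had 7.38, 7.42 and 7.36 on the knockout arrays and 7.41, 7.44 and 7.48 on the wild-type arrays. These overlapped, with a log2 fold change of -0.06 (SE 0.05, 95% interval -0.17 to 0.06, adjusted p = 0.76).

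Near Ccnd1 lies a group of fibroblast growth factor genes, and 1 of them rose. Fgf15, which encodes an endocrine growth factor known for the control of bile acid synthesis, had 5.53, 5.44 and 5.38 on the knockout arrays, against 4.51, 4.76 and 4.71 on the wild-type arrays. Its log2 fold change was 0.79 (SE 0.08), 1.73-fold, with limma adjusted p = 0.022. This was the only call among the 106 measured genes of the 8 lists of related genes, and a second, dimmer probe set of Fgf15 gave 0.17 with an unadjusted p of 0.18. The call was lost whichever single array was left out (adjusted p 0.052 to 0.11) and when both probe sets were averaged (0.12). Fgf4, a growth factor of early embryos, differed by 0.25 (SE 0.08, adjusted p = 0.35), and the chloride channel gene Ano1 had 0.03 (SE 0.05). Of 10 tested protein-coding genes around Ccnd1, Fgf15 alone was called and 2, Fgf15 and Fgf4, had groups that did not overlap, against 0.437% and 16.9% of all genes.

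The partners of the 10 genes in the retinoblastoma pathway were then examined. Of 16 measured CDKs, pocket proteins and other cyclins none was called and the median change was -0.03. In 3 of the 16 the unadjusted p was under 0.05, all with the lower mean in knockout cells, against 4.47% of all genes. In 7 of the 16 every knockout array lay below every wild-type array, against 8.1% of all genes, and in 2 every one lay above, against 8.79%. Rb1, the retinoblastoma gene, had 8.62, 8.53 and 8.56 in knockout and 8.70, 8.76 and 8.71 in wild-type cells (log2 fold change -0.15, SE 0.05, limma adjusted p = 0.38). Cdkn3, a phosphatase that acts on CDK2, had -0.18 (SE 0.05, adjusted p = 0.30), and Cdk7, the CDK-activating kinase, had -0.15 (SE 0.06, adjusted p = 0.43). These 3 genes are among the 7 whose knockout arrays all lay below the wild-type arrays. In the others of the 7 the groups were separated by only 0.0018 (Cdk4) to 0.017. The kinases that the D-type cyclins and INK4 proteins bind were close to level: Cdk4 had 10.69, 10.67 and 10.68 in knockout and 10.70, 10.69 and 10.71 in wild-type cells, a change of -0.02 (SE 0.04), and Cdk6 had a change of -0.04 (SE 0.06).

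Downstream, none of 10 E2F and DP factors and none of 19 E2F target genes was called. The E2F targets, which serve DNA replication, had a median change of -0.0020, and none of the 19 had an unadjusted p under 0.05, against 10.2% of all genes. The smallest p-values belonged to the ribonucleotide reductase subunits Rrm2 (log2 fold change 0.16, SE 0.07, limma adjusted p = 0.52) and Rrm1 (-0.10, SE 0.05, adjusted p = 0.59), which went opposite ways, followed by the DNA polymerase subunit Pola1 (0.06). Among the factors Tfdp2, a dimer partner of E2F proteins, had -0.13 (SE 0.05, adjusted p = 0.45), the activator E2f2 had 0.16 (SE 0.08) and E2f4, mostly a repressor, had 0.06 (SE 0.05).

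**Figure D5:**
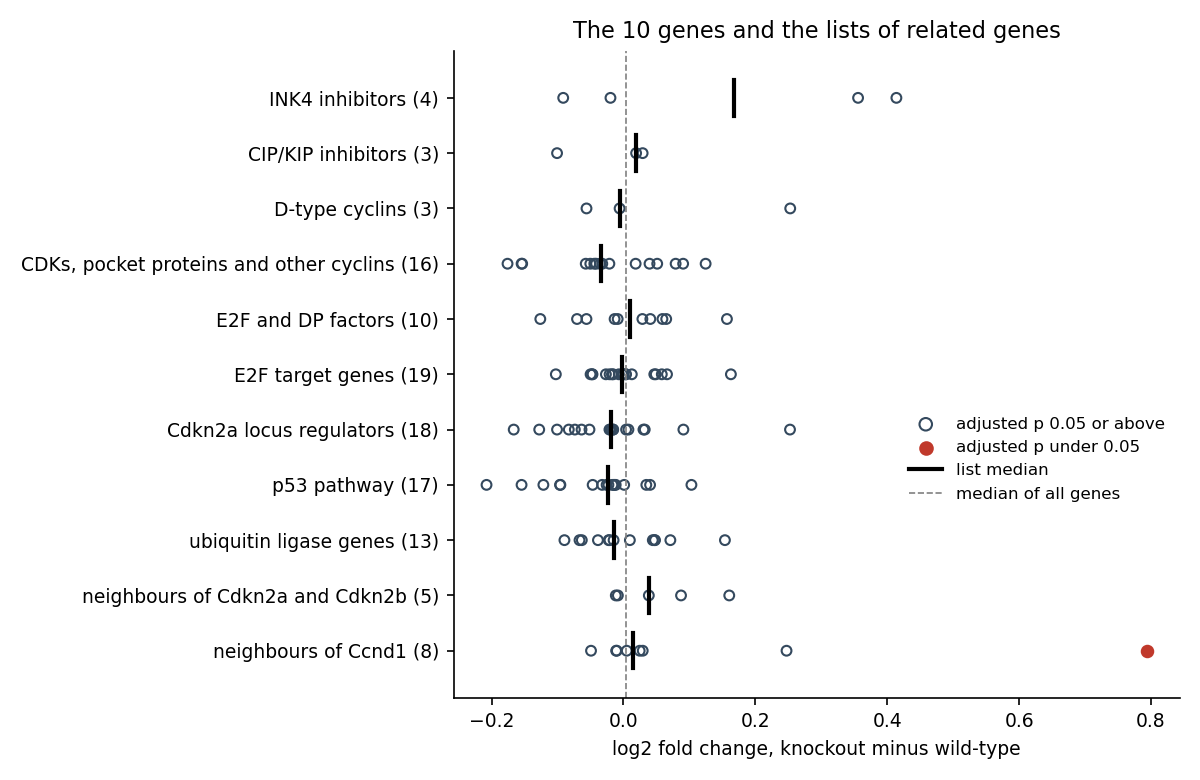
Log2 fold change, knockout minus wild-type (x axis), of each measured gene (points) of the 3 classes and 8 related lists (rows, number of genes in brackets), with the list median as a bar and the median of all 22180 genes, 0.0038, as a dashed line. The filled point is Fgf15, the only gene with an adjusted p under 0.05, and Cdkn2a and Cdkn2b stand at 0.36 and 0.41 in the top row.

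Known regulators of the Cdkn2a locus, mostly Polycomb proteins and transcription factors, held no call among 18 measured genes (median change -0.02). In 1 of the 18, Tbx3, every knockout array lay above every wild-type array, against 8.79% of all genes. In 2, Myc among them, every one lay below, against 8.1%. Tbx3, a T-box repressor of that locus that also acts in mammary development, had 6.52, 6.51 and 6.41 in knockout and 6.34, 6.24 and 6.11 in wild-type cells (log2 fold change 0.25, SE 0.07, limma adjusted p = 0.32). Myc had -0.13 (SE 0.05, adjusted p = 0.49) and the Polycomb gene Cbx8 had -0.17 (SE 0.08). Bmi1 and Ezh2, subunits of the 2 Polycomb complexes known to silence Cdkn2a, had -0.07 (SE 0.08) and -0.02 (SE 0.05).

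In the p53 pathway, to which p19ARF and p21 belong, none of 17 measured genes was called. The higher mean was in knockout cells for 4 of 17, against 51.5% of all genes, and the median change was small, -0.02. Mdm2, the ubiquitin ligase of p53 and itself a p53 target, had 9.80, 9.80 and 9.87 in knockout and 9.78, 9.85 and 9.89 in wild-type cells, a change of -0.01 (SE 0.05). The death receptor gene Fas had -0.21 (SE 0.07, limma adjusted p = 0.40), the RNA-binding zinc finger gene Zmat3 had -0.15 (SE 0.07) and Perp, a junction and apoptosis gene, had -0.12 (SE 0.06). Trp53 was not analysed here. Of 13 genes for ubiquitin ligases that degrade p27, p21 and the cyclins none was called and none had an unadjusted p under 0.05. Skp2, the subunit that recognises p27, differed by 0.15 on the log2 scale (SE 0.07, adjusted p = 0.52), Skp1 had -0.09 (SE 0.05) and Cul4a had -0.06 (SE 0.05).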

How the data were processed

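Gene expression was measured on 6 arrays, 3 of SLK-knockout and 3 of SLK wild-type cells, grouped by their titles. The authors deposited 1 table of values for 41345 probe sets, made with Affymetrix Expression Console 1.4.1.46 per the submitters' processing notes. Background correction, normalization, summarisation and the base of the logarithm are stated in none of the labels. The deposited values were taken as log2, since the highest, 12.4, is above what a natural logarithm of a 16-bit scanner's signal allows, and were not normalized further. The number of arrays limits the precision.

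Names came from the annotation of the array platform: 23521 had 1 symbol, 1814 several and 16010 none listed, and 23328 matched a RefSeq gene of GRCm38.p6 by identifier. Of 1082 symbols with several probe sets the one with the highest mean was kept, which gave 22180 genes. All were fitted in R 4.3.3 with limma 3.58.1 (functions lmFit and eBayes, two-sided, no covariate, no filter). Adjusted p-values are Benjamini-Hochberg values over all 22180 genes. The fit was tested on simulated data. Named genes were the 10 genes, Slk, the 3 members of each related list with the smallest p, 9 fixed partners (Mtap and Mdm2 among them, and Trp53, not analysed here) and the 3 genes most like Cdkn2a and Cdkn2b over the 6 arrays. The epithelial markers Krt8, Krt18, Krt19, Krt14, Cdh1 and Epcam and the fibroblast markers Pdgfrb, Postn and Col1a1 were named after their values were seen. The genes and lists were chosen with earlier results of these data known. The 16 alternatives were other normalizations, filters, probe set rules and variance models, array weights, a replicate block and leaving out each array.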

Additional observations from a re-analysis of the deposited data

How the results depend on the processing

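Of 159 values of the 10 genes under the 16 alternatives, 147 kept their direction and their side of the threshold. The count of the 10 genes called higher, 0 in the main analysis, was 2 without the dimmest 30% or 50% of genes (Cdkn2b, 0.41 in each, and Cdkn2a, 0.36 in each, with fewer genes tested) and 1 with an intensity trend or a robust fit and trend (Cdkn2b, 0.41 in each), and none was called lower under any. Changes of sign came in genes near 0: Cdkn2d ranged from -0.037 to 0.0054 with 1 array left out (positive without knockout replicate 3); Cdkn1c had -0.0041 with array weights and ranged from -0.073 to 0.074 with 1 array left out (negative without knockout replicate 2 or, at -0.010, wild-type replicate 1); Ccnd1 had 0.00093 with quantile normalization and ranged from -0.018 to 0.0028 with 1 array left out (positive without wild-type replicate 3). Cdkn1c has no value without the dimmest 50% of genes. With 1 array left out, Cdkn2b ranged from 0.38 to 0.45 and Cdkn2a from 0.31 to 0.39, and neither was called. Slk was called under all 16. Same-numbered arrays of the genotypes had an r of deviations of 0.044, 0.017 and -0.066, and differently numbered ones had -0.12 to 0.11. With 3 arrays per group these values cannot tell whether the numbers pair the samples. With the replicate block Cdkn2b (0.41) had adjusted p = 0.24 and Cdkn2a (0.36) 0.30.

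Over all genes, 72 were called higher and 25 lower in the main analysis. The counts were 143 and 63 without the dimmest 30%, 202 and 139 without the dimmest 50%, 265 and 176 with an intensity trend, 264 and 179 with a robust fit and trend, 25 and 4 with every probe set by itself, 5 and 1 with the replicate block, and 13 to 24 higher and 2 to 5 lower with 1 array left out. Of all calls 74.2% were higher in the main analysis, and the share was 59.2% to 92.3% under the alternatives. The 1 call among related genes, Fgf15, was lost (0 called) with means of probe sets, with every probe set by itself, with the replicate block and with any 1 array left out (0 in each). Of the epithelial marker calls, that of Cdh1 was lost with any 1 array left out. With 1 array left out, Krt14 stayed called only without wild-type replicate 1. Neither was called with the replicate block or with every probe set by itself, and Cdh1 was not called with means of probe sets. Pdgfrb was not called with the replicate block or without wild-type replicate 2. With an intensity trend, or a robust fit and trend, Krt8, Krt18, Dcn and Postn were called higher and Epcam and Col1a1 lower. Epcam was also called lower without the dimmest 30% or 50% of genes, and Dcn and Postn were called higher without the dimmest 50%. For the 36 other named genes, followed under the same alternatives as an addition made after seeing the data, 522 of 571 values kept direction and call, 29 lost a call and 11 gained one. Signs turned with 1 array left out for Ano1 (-0.0033 to 0.050), Bmi1 (-0.11 to 0.0037), Dmrta1 (-0.049 to 0.27), Ifne (-0.012 to 0.14), Mdm2 (-0.045 to 0.013) and Mtap (-0.019 to 0.0097), and for Ezh2 (0.00020) and Mdm2 (0.0058) with quantile normalization. Other causes were not tested.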
